A study of Mus musculus with 6 samples.

Results

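The genes of glycolysis and of the hypoxia response were compared between cells with high and cells with low senescence-associated β-galactosidase activity, sorted from axitinib-resistant 4T1 breast cancer cells. The set was defined by name, with earlier results of these data known, and holds 41 genes among the 53465 genes of the table. They are 16 glycolytic enzymes, 3 transporters of glucose or lactate, 3 regulators of glycolytic flux, 4 components of the hypoxia-inducible factor (HIF) pathway and 15 HIF targets outside glycolysis. Each of the 41 symbols was found, in 42 rows, because Aldoa has a second row that carries 0.12% of its counts.

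4T1 is a line of mouse mammary carcinoma. Per the series' design text, the cells came from lesions of mice that had undergone surgery and were dosed continuously with axitinib, a kinase inhibitor of VEGF receptors, at 100 mg/kg/day, and were kept afterwards in 0.5 µM axitinib for over 2 months. They were stained with C12FDG, a β-galactosidase substrate that becomes fluorescent when cleaved, and sorted into a bright fraction (SM positive, 3 libraries) and a dim fraction (SM negative, 3 libraries). Both fractions therefore share the line, the resistance and the drug, and unsorted, drug-free or non-resistant cells were not analysed here. Polyadenylated RNA was sequenced, and values are given as TMM-scaled CPM (counts scaled to a common library total). Where a gene has 3 values for a fraction, they are those of replicates 1, 2 and 3 in that order. The labels number the replicates 1 to 3 in both fractions without saying whether each number is its own culture or sort. The p-values below thus judge a difference between the fractions against the spread among these 6 libraries, and part of that spread may be technical.

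Glycolysis breaks glucose down to pyruvate, which lactate dehydrogenase can turn into lactate. HIF is a dimer of an oxygen-regulated α subunit, HIF-1α or HIF-2α, and the constant subunit ARNT. When oxygen is present, prolyl hydroxylases mark the α subunit, the VHL ubiquitin ligase binds it and it is degraded. When oxygen is low, the α subunit persists and HIF raises transcription of most glycolytic enzymes, of glucose transporter 1, and of genes for pH control, mitophagy, collagen modification and its own prolyl hydroxylases. HIF-1α is controlled largely at the level of the protein, so its mRNA is not a measure of its activity.

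Total counts were 19691379 to 26533528 in SM positive and 18733801 to 25302168 in SM negative libraries. The mitochondrial share was 1.56% to 1.90% in SM positive and 1.54% to 1.79% in SM negative ones (exact 2-sided permutation p = 0.9). With 3 libraries against 3, this permutation test cannot give a p below 0.1. Of 9 epithelial markers, Epcam, Krt8, Krt18, Cdh1 and Cldn4 were present in all 6 libraries, each at 128 CPM or more. Krt14 ranged from 15.7 to 21.1 CPM over the 6 libraries. Krt19 (0.887 to 2.23 CPM) and Cldn7 (1.23 to 1.67 CPM) were low, and Krt5 had no counts. Markers of other cell types were also low. Of these, Pdgfra (3.32 to 6.33 CPM) and Cd68 (4.25 to 8.01 CPM) stood above Krt19 and Cldn7 in every library. The summed level of 9 fibroblast and pericyte markers was 5.42 to 7.7 CPM in SM positive and 4.22 to 4.86 CPM in SM negative libraries, mostly from Pdgfra, with Lum, Col3a1 and Thy1 at 0. That of 9 leukocyte markers was 4.76 to 6.28 CPM in SM positive and 6.33 to 8.53 CPM in SM negative ones, mostly from Cd68, with Adgre1, Cd3e and S100a9 at 0. That of 7 endothelial markers was 0.187 to 0.405 CPM in SM positive and 0.478 to 0.694 CPM in SM negative ones. These 3 sums did not overlap between the fractions, while that of 5 muscle markers did (0.514 to 0.81 CPM in SM positive and 0.557 to 0.908 CPM in SM negative ones). Of all genes tested, 10.4% were higher and 9.47% lower in SM positive libraries without overlap. The endothelial sums lay near the level of 3 counts, which was 0.113 to 0.16 CPM. Their part in the results was not tested.

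With libraries taken as pairs by replicate number, 10 of 15 HIF targets outside glycolysis rose by small amounts in SM positive cells, and 2 of 16 glycolytic enzymes did. Car9, the cell-surface carbonic anhydrase IX, rose 1.43-fold and was the 1 gene of the set that passed edgeR's quasi-likelihood test without pairing (adjusted p = 0.0177); DESeq2 without pairing called Car9 and Pfkfb3. Over all 14038 genes tested, 1.35% passed in that fit, 1.14% higher and 0.214% lower, while no member was called lower and none had an unadjusted p under 0.05 with a negative change. The log2 change was positive for 32 of the 38 members tested, where 49.8% of all genes tested had one. Same-numbered libraries deviated together from their group means, so the replicate number was taken to pair them, which the labels do not state. The fit was repeated with the replicate number as a block. In the blocked fit, 17 of the 38 members tested were higher and none was lower, where 8.52% of all genes tested were higher and 5.6% lower. DESeq2 with the same block called 9 members higher (Hk1, Slc2a1, Hif1a, Car9, Bnip3, Egln1, Egln3, P4ha1 and Ddit4) and none lower, and limma-voom 15 and none. An unadjusted p under 0.05 with a negative change was found for 2 members in the blocked edgeR fit (Eno2 and Ndrg1). The 17 were 10 of the 15 HIF targets outside glycolysis, 2 of the 16 enzymes (Hk1 and Hk2), the glucose transporter gene Slc2a1, the flux regulators Pfkfb3 and Pdk1, and the pathway components Hif1a and Vhl. The blocked count was 9 without pair 1, 11 without pair 2 and 11 without pair 3, and all of these genes were among the 17. In bulk libraries, a higher level per cell and more cells that express a gene cannot be told apart.

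**Figure D1:**
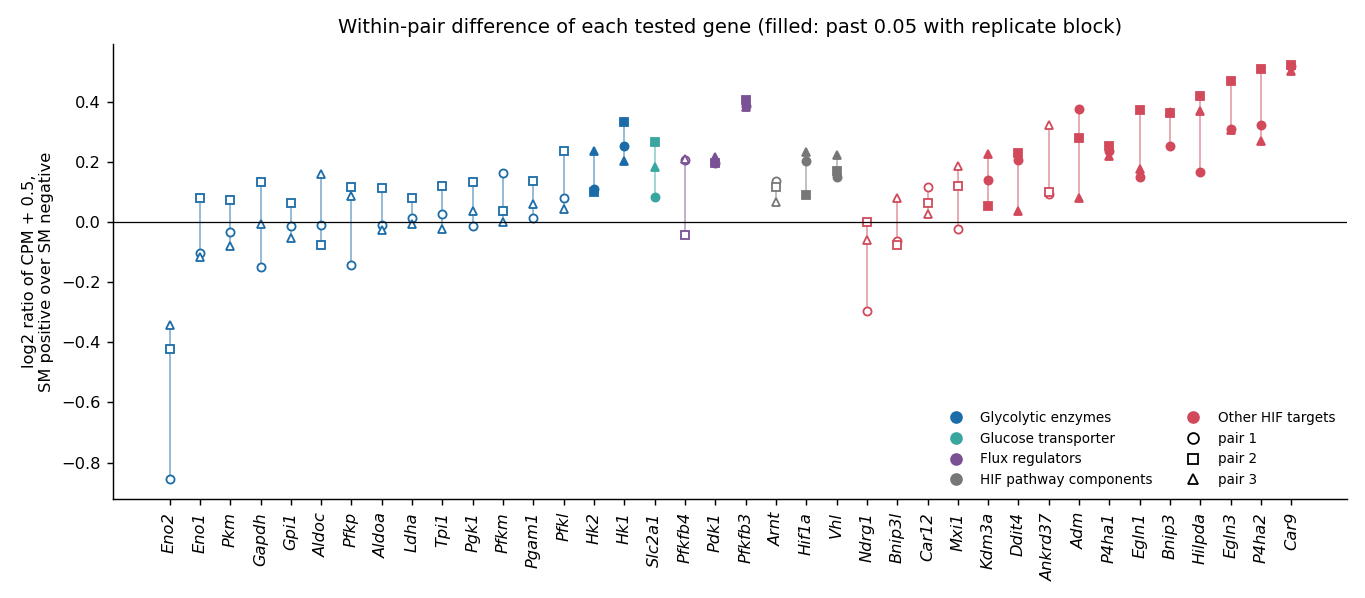
Log2 ratio of CPM + 0.5, SM positive over SM negative, within each of the 3 replicate pairs, for the 38 members tested. Points above 0 are higher in SM positive cells, filled points mark the 17 genes past an adjusted p of 0.05 in the fit with the replicate block, and the 3 ratios of Car9 lie between 0.50 and 0.52.

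The bases ACGTG or GCGTG are the core that HIF is known to bind, and they were searched on both strands of the 250 bases before each annotated gene start (RefSeq, GRCm38.p6). Of the 41 members, 37 had at least 1 such window. At least 1 match lay in a window of 32 of these 37 genes, against 41.5% of all genes with a window. By window, 41 of the members' 55 held a match, against 38.6% of all windows of this length. By class, this was 12 of 13 HIF targets outside glycolysis and 13 of 16 enzymes. It was also found for 16 of the 17 genes past the threshold with the block and for 15 of the 19 tested genes with a window that were not. The members' windows had a median GC content of 60.4%, against 52.4% for all windows. The E-box CACGTG holds the motif on both strands, was counted as 1 match, and is present in 6.02% of all windows. A match is a description of the sequence and does not show that HIF binds there. The windows of Car9, Bnip3 and P4ha1 are shown as examples of targets that passed with the block and with any pair left out. Egln1 (2 matches) and Egln3 (1 match, beginning 229 bases before RefSeq's gene start) also passed in this way and are not shown. The window of Pgk1, phosphoglycerate kinase, is shown as that of an enzyme that carries the same core and did not pass. Capitals mark each match, and each strand is that of its gene, from 5′ to 3′ and ending at the base before RefSeq's gene start, which can differ from the gene coordinates given here.
Car9 (chr4:43506776-43507025, plus strand): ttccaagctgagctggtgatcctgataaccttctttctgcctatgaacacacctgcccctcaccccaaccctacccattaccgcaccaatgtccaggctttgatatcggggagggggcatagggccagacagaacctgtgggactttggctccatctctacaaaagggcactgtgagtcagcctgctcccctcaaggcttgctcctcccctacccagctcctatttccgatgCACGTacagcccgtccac
Bnip3 (chr7:138909507-138909756, minus strand): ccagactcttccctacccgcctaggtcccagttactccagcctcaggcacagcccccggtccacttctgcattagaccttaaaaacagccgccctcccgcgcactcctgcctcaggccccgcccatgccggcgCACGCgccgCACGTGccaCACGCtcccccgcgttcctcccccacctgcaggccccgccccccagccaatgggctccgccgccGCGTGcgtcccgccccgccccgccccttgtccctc
P4ha1 (chr10:59323046-59323295, plus strand): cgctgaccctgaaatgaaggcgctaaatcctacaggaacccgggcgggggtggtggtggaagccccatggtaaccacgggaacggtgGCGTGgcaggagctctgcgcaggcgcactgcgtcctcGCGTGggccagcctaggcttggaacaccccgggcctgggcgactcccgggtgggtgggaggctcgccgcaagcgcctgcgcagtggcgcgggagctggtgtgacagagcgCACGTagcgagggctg
Pgk1 (chrX:106186850-106187099, plus strand): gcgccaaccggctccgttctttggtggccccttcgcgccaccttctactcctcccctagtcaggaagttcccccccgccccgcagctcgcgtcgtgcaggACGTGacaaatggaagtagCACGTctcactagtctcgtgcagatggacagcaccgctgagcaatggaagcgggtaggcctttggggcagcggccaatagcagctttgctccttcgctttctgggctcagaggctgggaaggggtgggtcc
Car9 had 1 match, which begins 18 bases before RefSeq's gene start. By the gene coordinates given here, Car9 starts earlier, at 43506966, so this match lies inside the gene. Bnip3 had 4 matches, of which 1 is a CACGTG, P4ha1 had 3 and Pgk1 had 2.

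The remaining 3 members were too low to test. Epas1, which encodes HIF-2α, had 0 counts in all 6 libraries, which allows up to 0.113 to 0.152 CPM in SM positive and 0.119 to 0.16 CPM in SM negative libraries at a limit of 3 counts, for counting error only. Slc2a3, the neuronal-type glucose transporter GLUT3, had at most 1 count in any library. Slc16a3, the lactate exporter MCT4, had 1 to 4 counts per library. Differences at or below these levels could not be seen at this depth. Slc16a1, which encodes the related monocarboxylate transporter MCT1, stood at 405 ± 19.3 CPM in SM positive libraries against 385 ± 17.2 CPM in SM negative ones (SD, n = 3 each).

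Among the enzymes, the smallest p belonged to the first step of the pathway. Hk1, the hexokinase that phosphorylates glucose in most tissues (chromosome 10, 62268855 to 62379908, minus strand, GRCm38), had 145, 171 and 145 CPM in SM positive libraries, against 121, 136 and 126 CPM in SM negative libraries. The lowest SM positive library lay above the highest SM negative one, as it did for 10.4% of all genes tested. The log2 change was 0.27 ± 0.0759 (SE), with an adjusted p of 0.15 without and 0.000215 with the replicate block. The antisense gene Hk1os overlaps it and held 3 to 16 counts per library, against 2541 to 3853 for Hk1. Hk2, the hexokinase that HIF induces, had 112, 172 and 147 CPM in SM positive libraries, against 104, 161 and 124 CPM in SM negative libraries. Its fractions overlapped, with replicate 2 high and replicate 1 low in both, and each SM positive library exceeded its own partner, by 0.11, 0.10 and 0.24 on the log2 scale in pairs 1, 2 and 3. Hk2 passed with the block only (edgeR adjusted p = 0.0227, against 0.831 without it), and no longer without pair 1 or pair 3 (adjusted p = 0.125 and 0.216).

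No enzyme passed without the block in edgeR, DESeq2 or limma-voom, and 1 (Hk1) had an unadjusted p under 0.05. With the block, the 14 enzymes other than Hk1 and Hk2 did not pass. Gapdh, glyceraldehyde-3-phosphate dehydrogenase, had 896, 1078 and 961 CPM in SM positive libraries, against 993, 983 and 964 CPM in SM negative libraries. Ldha, the lactate dehydrogenase subunit that favours lactate, had 1578, 1717 and 1444 CPM in SM positive libraries, against 1561, 1621 and 1448 CPM in SM negative libraries. Pkm, pyruvate kinase, had 2182, 2368 and 2025 CPM in SM positive libraries, against 2232, 2252 and 2141 CPM in SM negative libraries. In these 3 genes SM positive replicate 2 was the highest of the 6 libraries and the fractions overlapped. Their log2 changes were -0.0025 ± 0.0674 (SE), 0.033 ± 0.0711 (SE) and -0.011 ± 0.0635 (SE), and with the block their adjusted p was 0.952, 0.69 and 0.883. Aldoa, Tpi1, Pgk1 and Pgam1, the enzymes of the middle of the pathway, had log2 changes of 0.030, 0.046, 0.056 and 0.074, and Gpi1, the isomerase that follows hexokinase, had 0.0030 ± 0.073 (SE). Pfkl, the liver-type phosphofructokinase, stood at 421 ± 69.2 CPM in SM positive libraries against 384 ± 35.3 CPM in SM negative ones (SD, n = 3 each), with an adjusted p of 0.061 with the block. Scaling the blocked fit by library totals alone put Pfkl past the threshold (adjusted p = 0.0488).

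Eno1, the enolase of most tissues, shares 28.5% of its 31-base stretches with other genes, and Eno1b is its near-identical copy. Eno1 stood at 1435 ± 118 CPM in SM positive libraries against 1477 ± 9.83 CPM in SM negative ones, and Eno1b at 931 ± 87.3 CPM in SM positive ones against 961 ± 11.4 CPM in SM negative ones (SD, n = 3 each). Summed, they gave a log2 change of -0.044, as Eno1 did alone (-0.042). Pgk1 shares 54.7%, Pgam1 37.1%, Pkm 34.7%, Gapdh 27.2% and Ldha 19.6% of such stretches with other genes. The levels of these enzymes are uncertain, since the counting could split such reads. Eno2, the enolase of neurons and a HIF target, had 14 to 57 counts and was the member with the most negative change (-0.65 ± 0.489 (SE)). It was lower in SM positive libraries in each pair, but did not pass (edgeR adjusted p = 0.634, and 0.0584 with the block).

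Levels of genes that act at the same step were compared per kb of annotated exon. Aldoa stood at 427 ± 33.2 CPM per kb in SM positive libraries against 419 ± 11.8 CPM per kb in SM negative ones (SD, n = 3 each here and below), and Aldoc at 4.48 ± 0.196 CPM per kb in SM positive libraries against 4.41 ± 0.391 CPM per kb in SM negative ones. Pfkl stood at 63 ± 10.4 CPM per kb in SM positive libraries against 57.6 ± 5.29 CPM per kb in SM negative ones, Pfkm, the muscle type, at 5.51 ± 0.244 CPM per kb in SM positive libraries against 5.25 ± 0.318 CPM per kb in SM negative ones, and Pfkp, the platelet type, at 3.59 ± 0.536 CPM per kb in SM positive libraries against 3.52 ± 0.221 CPM per kb in SM negative ones. Pfkl and Aldoa were the highest of these genes for their step in every library. Eno1 stood at 267 ± 21.9 CPM per kb in SM positive libraries against 275 ± 1.83 CPM per kb in SM negative ones, and Eno3, the enolase of muscle, which is outside the set and was chosen after its values were seen, at 61.3 ± 3.95 CPM per kb in SM positive libraries against 57.8 ± 3.17 CPM per kb in SM negative ones. The hexokinases were closer, with Hk2 at 24.1 ± 5.07 CPM per kb in SM positive libraries against 21.7 ± 4.81 CPM per kb in SM negative ones and Hk1 at 18 ± 1.79 CPM per kb in SM positive libraries against 15 ± 0.868 CPM per kb in SM negative ones. Ldhb, the other common lactate dehydrogenase subunit, had at most 1 count in any library. Exon lengths are unions over annotated transcripts, so genes with many annotated isoforms, such as Pfkp, are understated.

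**Figure D2:**
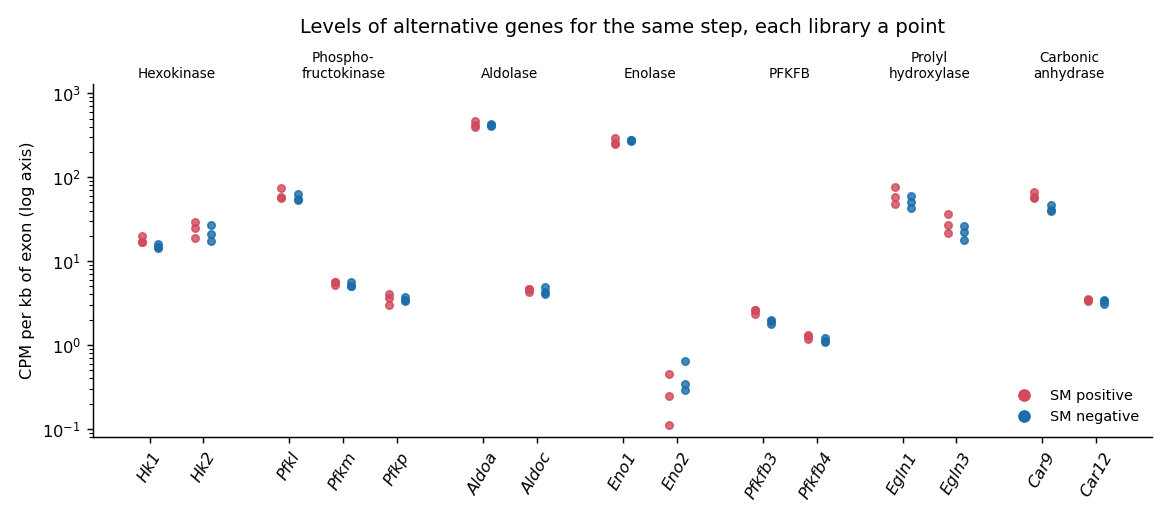
Level per kb of annotated exon (log axis) of genes that act at the same step or belong to the same family, with 1 point per library and SM positive left of SM negative. Aldoa, Pfkl and Eno1 stand above the other genes plotted for their step in every library, and the fractions of Car9, Pfkfb3 and Hk1 do not overlap.

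Glucose transporter 1 and a pair of flux regulators were higher in SM positive cells within pairs. Slc2a1, glucose transporter 1 (chromosome 4, 119108711 to 119137983, plus strand), had 127, 256 and 192 CPM in SM positive libraries, against 120.1, 213 and 169 CPM in SM negative libraries. Replicate 2 was the highest and replicate 1 the lowest in both fractions, which overlapped. Within pairs, SM positive was higher by 0.083, 0.27 and 0.18 on the log2 scale, and Slc2a1 passed with the block only (edgeR adjusted p = 0.00733, against 0.866 without it). It passed without pair 1 (adjusted p = 0.0263), and not without pair 2 (0.0785) or pair 3 (0.0626).

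Pfkfb3 makes fructose 2,6-bisphosphate, the strongest activator of phosphofructokinase. Pfkfb3 (chromosome 2, 11471433 to 11554077, minus strand) had 17.7, 19.6 and 19.8 CPM in SM positive libraries, against 13.5, 14.6 and 15 CPM in SM negative libraries. No library overlapped between the fractions, and the log2 ratios of 0.39, 0.41 and 0.38 in pairs 1, 2 and 3 were nearly equal. The fold was 1.32 (log2 change 0.40 ± 0.0891 (SE)), which missed the threshold without the block (edgeR adjusted p = 0.0596) and passed with it (0.000643), also with each pair left out in turn. DESeq2 called it without the block (adjusted p = 0.0336) and not with it (0.0581). Its relative Pfkfb4 stood at 6.09 ± 0.354 CPM in SM positive libraries against 5.54 ± 0.302 CPM in SM negative ones (SD, n = 3 each) and did not pass (adjusted p = 0.509 with the block). Pdk1 encodes a kinase that inhibits pyruvate dehydrogenase. Pdk1 had 74.5, 104 and 90.5 CPM in SM positive libraries, against 64.9, 90.5 and 77.8 CPM in SM negative libraries. Its fractions overlapped, yet the pair ratios of 0.20, 0.20 and 0.22 were close to each other, and it passed with the block (edgeR adjusted p = 0.00215; 0.63 without it), though not without pair 1 (0.0555) or in DESeq2 with the block (0.0533).

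The components of the pathway that could be tested varied little between replicates and did not overlap between the fractions. Hif1a, which encodes HIF-1α (chromosome 12, 73901375 to 73947530, plus strand), had 248, 244 and 258 CPM in SM positive libraries, against 215, 229 and 219.7 CPM in SM negative libraries. Vhl, the substrate-binding part of the ligase that removes it, had 29.6, 31.1 and 29.8 CPM in SM positive libraries, against 26.6, 27.6 and 25.5 CPM in SM negative libraries. Arnt, the constant partner, had 67.7, 67.7 and 65 CPM in SM positive libraries, against 61.5, 62.4 and 62 CPM in SM negative libraries. For all 3 genes every SM positive library stood above every SM negative one, as for 10.4% of all genes tested. The log2 changes were 0.18 ± 0.0522 (SE) for Hif1a, 0.18 ± 0.0713 (SE) for Vhl and 0.11 ± 0.0546 (SE) for Arnt. None passed without the block (edgeR adjusted p = 0.168, 0.281 and 0.426), and with it Hif1a (0.0062) and Vhl (0.0362) passed while Arnt did not (0.111). The Vhl call was lost with any pair left out, and the Hif1a call without pair 1 or pair 3 (0.128 and 0.0928).

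Among HIF targets outside glycolysis, Car9 had the largest log2 change. Carbonic anhydrase IX hydrates CO2 outside the cell and helps to export acid, and Car9 (chromosome 4, 43506966 to 43513729, plus strand) is a classical target of HIF-1. Its promoter window above holds 1 match to the HIF core. It had 135, 154 and 129 CPM in SM positive libraries, against 93.8, 107 and 90.5 CPM in SM negative libraries, so that every SM positive library was above every SM negative one. The pair ratios were 0.52, 0.52 and 0.50 on the log2 scale, and the log2 change was 0.52 ± 0.0827 (SE). The adjusted p was 0.0177 without and 4.69e-08 with the block. Without the block the call was lost when SM negative replicate 1 or SM negative replicate 3 was left out (adjusted p = 0.0733 and 0.0827), and with the block it held with any pair left out. The antisense gene Gm12454 overlaps Car9, and how the counting treated strand is not given in the sources used here. The row of Gm12454 held 18 to 36 counts per library, against 1910 to 3589 for Car9. Car12, the related carbonic anhydrase XII, stood at 26.2 ± 0.648 CPM in SM positive libraries against 24.9 ± 1.4 CPM in SM negative ones (SD, n = 3 each) and did not pass (adjusted p = 0.478 with the block).

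The prolyl hydroxylases that mark HIF-α are themselves HIF targets. Egln3 (PHD3) had 58.3, 95.8 and 72.6 CPM in SM positive libraries, against 46.9, 69 and 58.6 CPM in SM negative libraries. Egln1 (PHD2) had 173, 278 and 207 CPM in SM positive libraries, against 155, 214 and 183 CPM in SM negative libraries. In both genes replicate 2 was the highest and replicate 1 the lowest in each fraction, so the fractions overlapped, but every SM positive library exceeded its partner. The pair ratios were 0.31, 0.47 and 0.31 for Egln3 and 0.15, 0.37 and 0.18 for Egln1, and both passed with the block (edgeR adjusted p = 1.76e-05 and 0.00147), also with any pair left out, but not without it (0.535 and 0.672). Bnip3, a mitophagy receptor of the outer mitochondrial membrane, had 92.6, 159 and 122 CPM in SM positive libraries, against 77.5, 124 and 94.3 CPM in SM negative libraries. It showed the same order of replicates, pair ratios of 0.25, 0.36 and 0.37, and an adjusted p of 2.29e-05 with and 0.659 without the block. Its relative Bnip3l, which shares 23.7% of its 31-base stretches with other genes (Bnip3 shares 20.3%), stood at 149 ± 5.11 CPM in SM positive libraries against 151 ± 12 CPM in SM negative ones (SD, n = 3 each) and did not pass (adjusted p = 0.823 with the block).

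Collagen prolyl 4-hydroxylase prepares collagen chains for the triple helix, and its α subunits are encoded by P4ha1 and P4ha2. P4ha1 had 155, 188 and 143 CPM in SM positive libraries, against 132, 158 and 123 CPM in SM negative libraries. P4ha2 had 7.35, 14.1 and 9.47 CPM in SM positive libraries, against 5.77, 9.72 and 7.77 CPM in SM negative libraries. Both were higher in SM positive cells in each pair, by 0.24, 0.26 and 0.22 and by 0.32, 0.51 and 0.27 on the log2 scale. With the block both passed (edgeR adjusted p = 0.000382 and 0.0107), P4ha1 also with any pair left out and P4ha2 only without pair 3, and without the block neither did (0.431 and 0.568).

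Of the targets with other roles, Hilpda, an inhibitor of lipolysis on lipid droplets, had 14.8, 23.8 and 18.9 CPM in SM positive libraries, against 13.1, 17.6 and 14.5 CPM in SM negative libraries. Adm, which encodes the vasodilator peptide adrenomedullin, had 16.8, 32.4 and 25.4 CPM in SM positive libraries, against 12.8, 26.6 and 24 CPM in SM negative libraries. In both, replicate 1 was the lowest of each fraction. Ddit4, an inhibitor of mTORC1 signalling that stress pathways other than HIF also induce, had 386, 481 and 404 CPM in SM positive libraries, against 334, 410.3 and 394 CPM in SM negative libraries. Kdm3a, a histone H3 lysine 9 demethylase, had 87, 111 and 108 CPM in SM positive libraries, against 78.9, 107 and 92.4 CPM in SM negative libraries. These 4 genes overlapped between the fractions, were higher in SM positive cells in all 3 pairs, and passed with the block only (edgeR adjusted p = 0.00545, 0.0206, 0.0169 and 0.0373). Each of these calls held in 1 of the 3 fits with a pair left out. Hilpda passed without pair 1 (0.0124), Adm and Ddit4 without pair 3 (0.0257 and 0.0172), and Kdm3a without pair 2 (0.023).

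The other 5 targets did not pass in either fit. Ndrg1, a stress-induced growth regulator and a strong hypoxia marker in many cells, stood at 439 ± 122 CPM in SM positive libraries against 469 ± 87.2 CPM in SM negative ones (SD, n = 3 each), with pair ratios of -0.29, -0.00023 and -0.059 on the log2 scale, so it was lower in SM positive cells in pair 1, about equal in pair 2 and a little lower in pair 3. Bnip3l was the other target with a negative change. Ankrd37, an ankyrin-repeat protein, had 145 to 257 counts per library and was higher in SM positive cells in each pair (log2 change 0.19 ± 0.323 (SE), adjusted p = 0.238 with the block). Mxi1, a MYC antagonist, stood at 37.8 ± 0.898 CPM in SM positive libraries against 35.4 ± 2.21 CPM in SM negative ones (SD, n = 3 each; adjusted p = 0.31 with the block), and Car12 is given above.

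**Figure D3:**
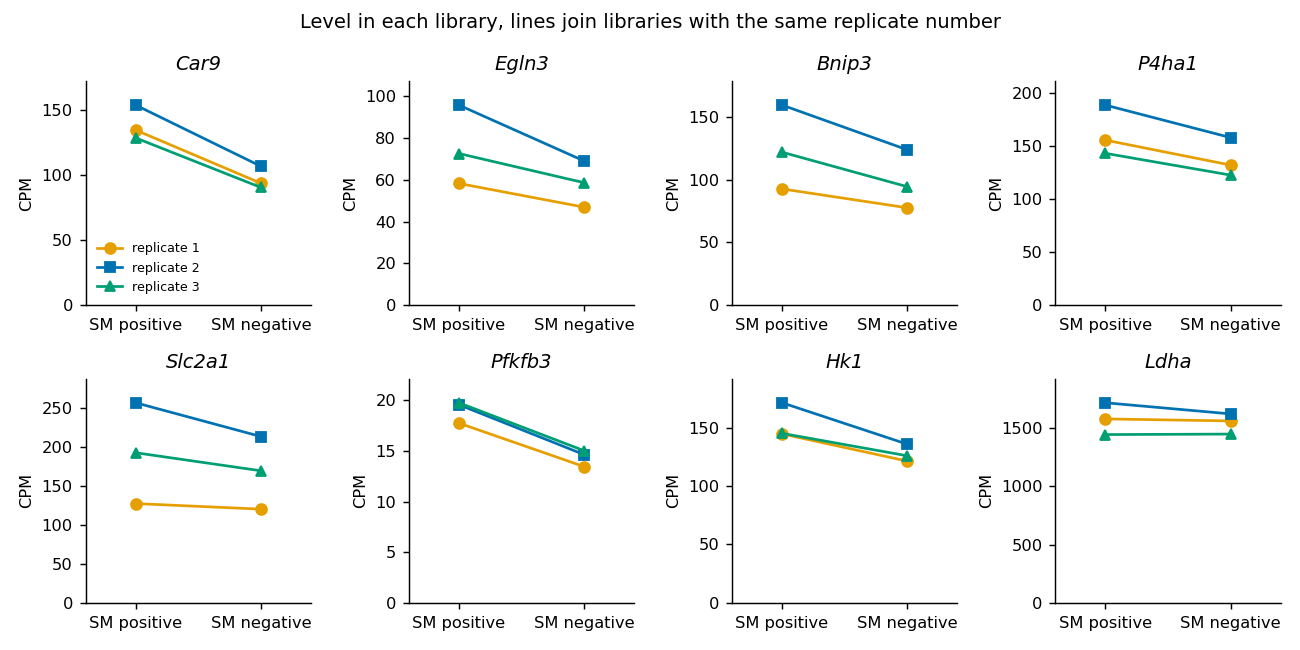
CPM of 8 members in each library, SM positive left of SM negative, with lines joining libraries of the same replicate number. The lines of Car9, Egln3, Bnip3, P4ha1, Slc2a1, Pfkfb3 and Hk1 all slope down to SM negative, those of Ldha are nearly flat, and replicate 2 stands highest for most of these genes.

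Set side by side, the 16 enzymes had a median log2 change of 0.032 and the 15 HIF targets outside glycolysis one of 0.24, where the median of all genes tested was -0.000847. Within pairs 1, 2 and 3 the median log2 ratio was 0.17, 0.26 and 0.22 for the targets and -0.0091, 0.11 and -0.0011 for the enzymes. The targets' median was thus positive in every pair, while that of the enzymes was positive in pair 2 only. The count of genes higher in all 3 pairs was 12 of 15 targets and 5 of 16 enzymes, where 23.9% of all genes tested were; 1 target (Ndrg1) and 1 enzyme (Eno2) were lower in all 3 pairs, where 22.7% of all genes tested were. Without overlap between the fractions, 1 target (Car9) and 1 enzyme (Hk1) were higher, with 10.4% of all genes tested. The difference between the classes was not tested. Without SM positive replicate 2 the medians became 0.074 for the targets and -0.031 for the enzymes.

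For most members, as for most genes tested, the range between replicates exceeded the difference between the fractions. For each gene the 2 libraries of a pair were averaged on the log2 scale, and the range of the 3 averages was taken. Its median was 0.54 for the HIF targets outside glycolysis, 0.20 for the enzymes, 0.046 for Hif1a, Arnt and Vhl, and 0.17 for all genes tested. The widest ranges among the members were those of Eno2 (1.15), Adm (0.98), Slc2a1 (0.92) and Ankrd37 (0.90). The range exceeded the difference between fractions in 13 of 15 targets and 15 of 16 enzymes, as in 68.6% of all genes tested. A range of 3 averages and a difference of 2 means are unlike measures, so this comparison is a description only. Replicate 2 was the highest library of both fractions for 13 of 15 targets and 13 of 16 enzymes, and for 16.1% of all genes tested. Replicate 1 was the lowest of both for 11 of the targets, 6 of the enzymes and 20.3% of all genes tested. For Car9, Hk1, Pfkfb3, Pfkfb4, Hif1a, Arnt, Vhl and Mxi1 the fraction difference exceeded that range. What the replicate numbers stand for is not stated in the labels, so this spread cannot be assigned to a culture, a sort or a library preparation.

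**Figure D4:**
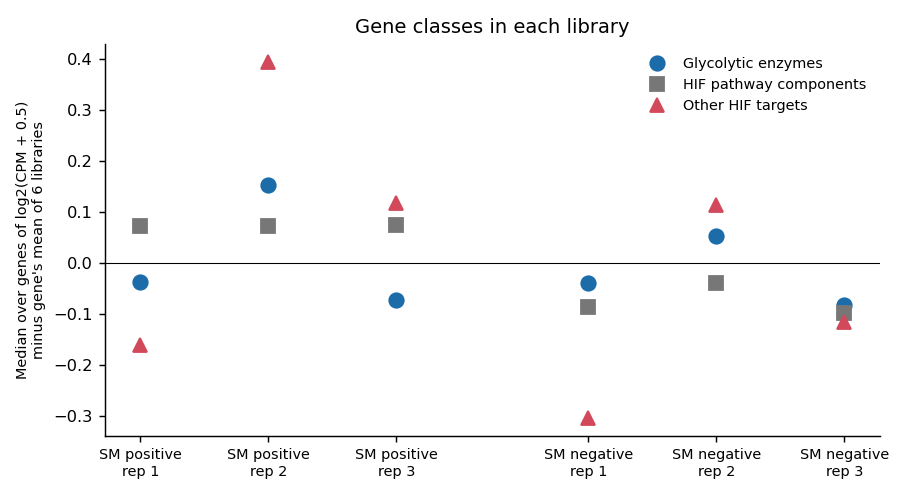
Median over the genes of each class of log2(CPM + 0.5) minus the gene's own mean of the 6 libraries, by library. HIF targets run from 0.39 in SM positive replicate 2 to -0.30 in SM negative replicate 1, glycolytic enzymes also stand highest in replicate 2 of each fraction but lowest in replicate 3, and the 3 pathway components separate by fraction.

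Genes of the same pathways outside the set were taken from lists written from general knowledge, but with earlier results of these data known. Their counts are therefore not independent support. Of 61 further genes of glucose metabolism, 42 were tested. None passed without the block in edgeR or DESeq2 (5 had an unadjusted p under 0.05 in edgeR). With the block 5 were higher (11.9% of the 42, beside 8.52% of all genes tested) and 2 lower (beside 5.6% of all genes tested). DESeq2 with the block called 2 higher and none lower. Gys1, muscle-type glycogen synthase, stood at 71.5 ± 23 CPM in SM positive libraries against 55.7 ± 14.1 CPM in SM negative ones (SD, n = 3 each; edgeR adjusted p = 4.82e-05 with and 0.688 without the block). Pgm1, a phosphoglucomutase that links glucose 6-phosphate to glycogen, stood at 80.9 ± 13.2 CPM in SM positive libraries against 67 ± 7.38 CPM in SM negative ones (adjusted p = 0.00041 and 0.371). The 2 lower genes were G6pc3, a glucose 6-phosphatase (25.3 ± 1.98 CPM in SM positive libraries against 29.1 ± 1.44 CPM in SM negative ones; adjusted p = 0.0257 and 0.315), and Pck2, mitochondrial phosphoenolpyruvate carboxykinase (59.1 ± 1.48 CPM in SM positive libraries against 65.3 ± 2.56 CPM in SM negative ones; adjusted p = 0.0347 and 0.31).

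Of 55 further genes of the HIF pathway and its targets, 40 were tested. None passed without the block in edgeR or DESeq2 (7 had an unadjusted p under 0.05 in edgeR). With the block 13 were higher (32.5% of the 40, beside 8.52% of all genes tested) and none lower (beside 5.6%). A negative change with an unadjusted p under 0.05 was found for 1 gene. DESeq2 with the block called 6 higher and none lower. The median log2 change over the 40 was 0.073. Bhlhe41, a transcriptional repressor of the clock and of hypoxia, stood at 41.1 ± 6.69 CPM in SM positive libraries against 31 ± 3.23 CPM in SM negative ones (SD, n = 3 each; edgeR adjusted p = 4.07e-05 with and 0.172 without the block). Plod2, a lysyl hydroxylase of collagen, stood at 77.4 ± 8.45 CPM in SM positive libraries against 64.7 ± 6.99 CPM in SM negative ones (adjusted p = 0.000347 and 0.261). Vegfa, the angiogenic ligand whose receptors axitinib inhibits, stood at 101 ± 2.44 CPM in SM positive libraries against 91.1 ± 4.39 CPM in SM negative ones (adjusted p = 0.0227 and 0.281). Among genes with a negative change, Gprc5a and Cul2 had the smallest p with the block and did not pass (0.116 and 0.195). Egln2, the third prolyl hydroxylase, stood at 33.1 ± 2.33 CPM in SM positive libraries against 32.4 ± 2.11 CPM in SM negative ones, and Hif1an, the asparaginyl hydroxylase that silences HIF-α, at 57.4 ± 2.57 CPM in SM positive libraries against 53.9 ± 2.81 CPM in SM negative ones; neither passed (0.857 and 0.207).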

How the data were processed

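Messenger RNA of 3 SM positive and 3 SM negative libraries was compared. The authors deposited expected counts for each gene, and per the submitters' processing notes FastQC 0.11.5, STAR 2.6.0a, RSEM 1.3.1 and the GRCm38 build were used. What each tool did is not given in the sources used here, nor are the annotation release and strand setting. Between 13.53% and 14.41% of a library's values were not whole, and all were rounded. Identifiers were matched without version to GENCODE M21 (GRCm38), which names 99.8% of them and gives the coordinates (1-based) and exon lengths; at most 0.0102% of a library's counts lay in unmatched rows.

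Genes were filtered with filterByExpr (14038 kept), TMM-scaled and tested with edgeR 4.0.16 (R 4.3.3) by the robust quasi-likelihood F test, with Benjamini-Hochberg adjustment over all of them and a threshold of 0.05. Log2 changes (SM positive over SM negative) come from the fit without a block. Pair ratios are log2 of CPM + 0.5. The labels give both fractions replicate numbers 1 to 3. Same-numbered libraries deviated together from their group means (correlations 0.37, 0.36 and 0.28, against -0.29 to -0.05 for different numbers). A gene's deviations within a fraction sum to 0, so the negative values are not independent of the positive ones. On this ground, from the same data, replicate numbers were treated as pairs. The fit with the replicate block is given beside the other. Alternatives were RLE and total-count scaling, other filters, a non-robust fit, DESeq2 1.42.0, limma-voom (limma 3.58.1) and leaving out each library or pair; summing Eno1 with Eno1b was added after the data were seen. Limits and shares cover counting error only.

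The members and lists were chosen with earlier results of these data known. Described with library values were the 17 genes called with the block and Hif1a, Epas1, Arnt, Vhl, Slc2a1, Hk2, Gapdh, Pkm and Ldha. Of the other pathway genes, up to 2 with the smallest blocked p in each direction and Ldhb, Slc16a1, Hif1an, Egln2 and Vegfa were named.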

Additional observations from a re-analysis of the deposited data

How the results depend on the processing

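Without the block, 190 genes passed, of which 1 was a member (Car9), and Car9 kept its sign in all alternatives run. Of the 17 genes called with the block, 3 changed sign in a fit without the block: without SM positive replicate 2 the log2 change was -0.067 for Slc2a1, -0.0012 for Hk2 and -3.3e-05 for Adm, and without SM negative replicate 1 it was -0.033 for Adm. The other scalings, the filter above 1 CPM, limma-voom and the non-robust fit kept the member count at 1, while no filter gave 663 genes, 5 members, 1 enzyme and 3 HIF targets outside glycolysis, and DESeq2 gave 334 genes and 2 members. Leaving out 1 library gave 25 to 123 genes, 0 to 1 members and 0 to 1 HIF targets, and moved the targets' median log2 change to 0.074 to 0.39 (0.074 without SM positive replicate 2). The enzymes' median stayed between -0.03 and 0.08. With the replicate block, genes, members, enzymes and HIF targets numbered 1982, 17, 2 and 10. They were 705, 9, 1 and 6 without pair 1, 1793, 11, 2 and 6 without pair 2, and 886, 11, 1 and 8 without pair 3. With the block, RLE scaling gave 1975, 17, 2 and 10, library totals 1961, 18, 3 and 10, limma-voom 1586, 15, 2 and 9, and DESeq2 616, 9, 1 and 6. Hk1, Car9, Bnip3, Egln1, Egln3 and P4ha1 passed in all 8 blocked fits. Epas1, Slc2a3 and Slc16a3 were too low to test.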
